A study of Canis lupus familiaris with 15 samples.

Results

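The DNA damage response, the targets of the transcription factor p53 and the genes of programmed cell death were examined as a panel of 55 genes in cultured canine osteosarcoma cells. A gene was taken from a table where its symbol matched exactly. Of the 55 genes, 40 were listed in at least 1 of 3 tables of differentially expressed genes, which together hold 7699 symbols. The remaining 15 genes are in none of them.

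The samples were D17 and HMPOS cells that had left the vessels of Tg(fli1a:EGFP) zebrafish embryos as clusters and had been grown out in culture (the extravasation-positive sublines, called extravasated below), the parental D17 and HMPOS cells, which had not been in a fish, and parental POS cells. HMPOS is a highly metastasizing sub-line of POS. RNA from 3 libraries in each of the 5 groups was sequenced. The extravasated cells had been dissected out of the embryos and expanded before RNA was taken, so these values describe the expanded sublines and not cells at the moment of exit. The labels do not say whether the 3 parental libraries of a line came from separate cultures.

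Cells answer broken DNA by repairing it, by pausing the cell cycle or by dying. ATM and ATR sense the damage and act through the kinases CHEK2 and CHEK1, BRCA1, BRCA2 and the Fanconi anemia proteins carry out repair by homologous recombination and at crosslinks, and p53 switches on genes that stop the cycle, such as CDKN1A, or that promote death, such as BAX, BBC3 and FAS. MDM2 and MDM4 hold p53 in check. Many repair genes are transcribed mainly in the S and G2 phases, so their RNA is usually more abundant in cultures with more cycling cells. Osteosarcoma is known for frequent loss of p53 and RB1 function and for complex chromosomes.

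The deposited tables give 1 level per gene and group, in FPKM (fragments scaled to transcript length and library size), which stands for the 3 libraries of that group. Depth and the variation among the 3 libraries are therefore unknown, and the ratios below carry no SD, interval or p-value. Every gene in the tables had been marked significant by the authors' own test, and genes that had not passed are left out of the tables. A gene that is not listed may thus be expressed or not, and changed or not. The groups named norm were read as parental, because POS has parental libraries only and bears that name, and the groups named meta as extravasated. No source used here spells these names out. Every direction given for D17 and HMPOS extravasated cells rests on this reading: with the names the other way round, each would be reversed. The HMPOS group compared with POS is also named norm, so calling it parental rests on the same reading. With the names the other way round, it would be the extravasated HMPOS cells, and its directions against POS would stay. The fold change column in the tables runs as norm over meta, and the article describes directions in extravasated cells that follow from the opposite reading of the names, or from taking that column as meta over norm. In number, the article's up- and downregulated genes in extravasated cells lie close to the genes lower and higher in meta, respectively. Here 392 were lower and 797 higher in meta for HMPOS, and 2022 and 2390 for D17. The reading is thus in doubt, and the directions below are those of meta against norm. Ratios are extravasated over parental cells, or HMPOS over POS, and the mark used here for a large difference was a ratio above 2.

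The D17 table lists 28 of the 55 genes. The HMPOS table holds 5 of them, and that of parental HMPOS against parental POS 24. Under that reading of the names, which the article's directions put in doubt, the shares in D17 and HMPOS are as follows. In D17, 8 of the 28 were higher and 20 lower in extravasated cells, while 54.2% of all 4412 listed genes were higher and 45.8% lower. Past 2-fold, 4 genes were higher and 8 lower, against 18.3% and 8.50% of all listed genes. In HMPOS, 4 of the 5 were higher and 1 lower, where 67.0% of all 1189 listed genes were higher and 33.0% lower. Of these 5, 2 were more than 2-fold higher and 0 more than 2-fold lower, against 20.5% and 4.79% of all listed genes. Between the parental lines, 8 of the 24 were higher and 16 lower in HMPOS, against 47.7% and 52.3% of all 5746 listed genes. Here 0 were more than 2-fold higher and 5 more than 2-fold lower, against 8.49% and 19.1%. These are single group values, so the counts describe the listed genes and were not tested.

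Over all listed genes, the log2 ratio had a median of 0.39 in D17, 0.58 in HMPOS and -0.31 for HMPOS against POS. Measured from those medians, 0 of the 28, 0 of the 5 and 0 of the 24 genes turned direction. The counts past 2-fold moved from 4 higher and 8 lower to 1 and 16 in D17, and from 0 higher and 5 lower to 2 and 3 for HMPOS against POS.

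**Figure D1:**
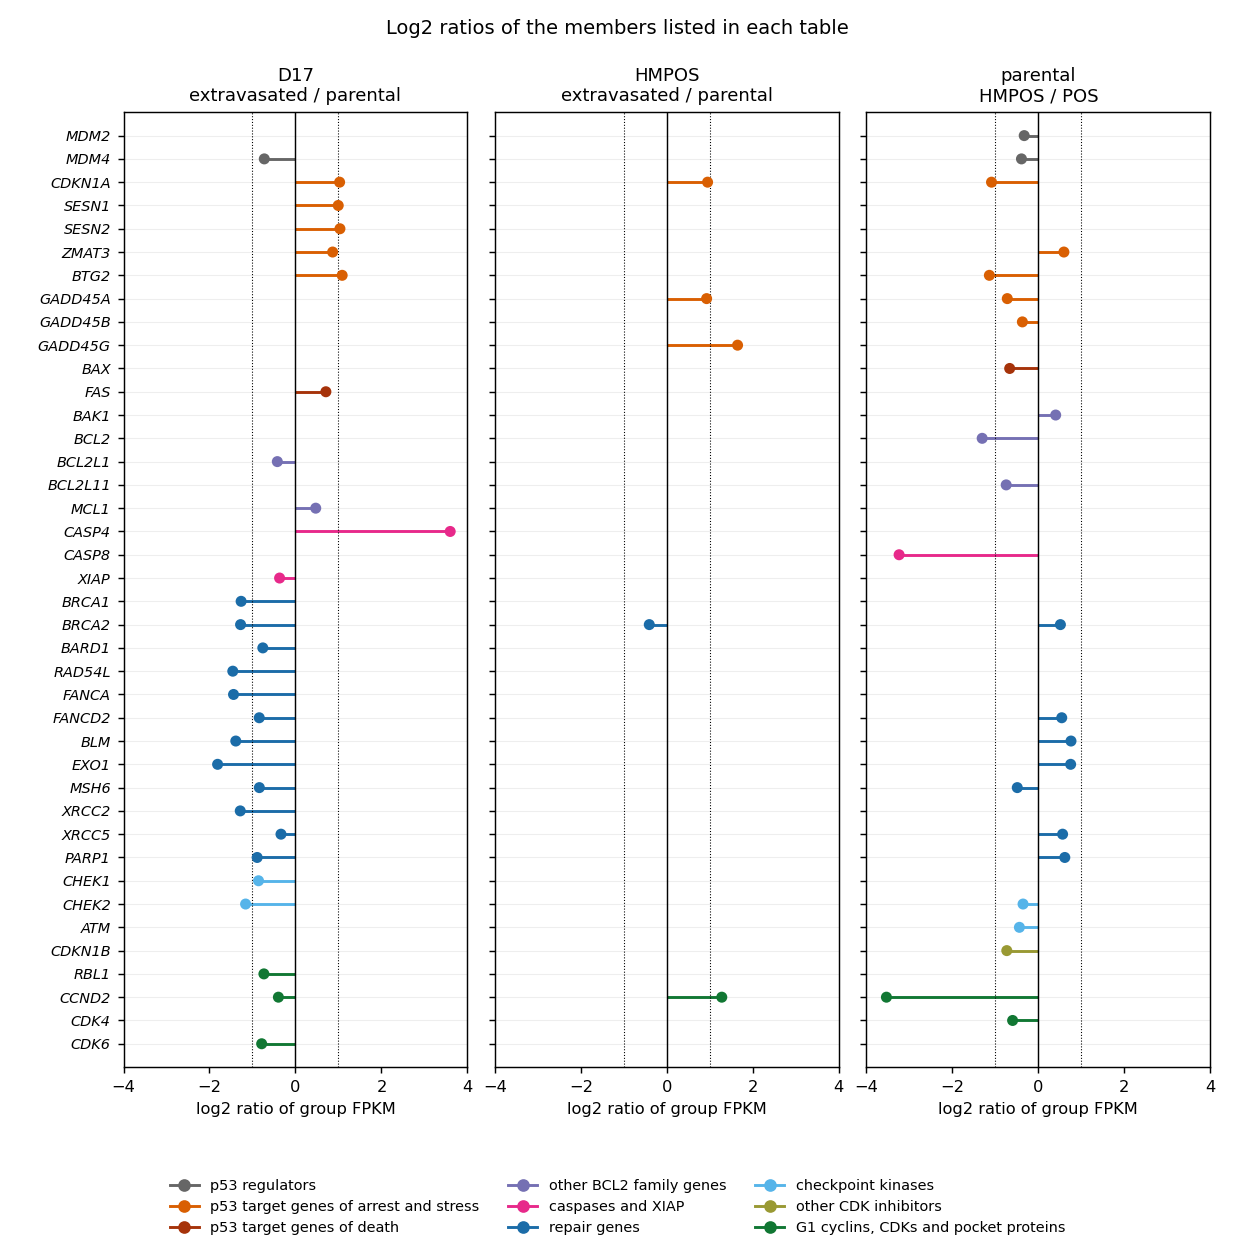
Log2 ratios (x axis) of the 40 listed panel genes (rows), with a panel for each of the 3 comparisons, a point and a line from 0 for each listed gene and dotted lines at a ratio of 2 in either direction. The repair genes (dark blue) lie left of 0 in D17 without exception, while the p53 target genes of arrest and stress (orange) lie right of 0 in both extravasation comparisons.

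In D17, the repair genes were lower in extravasated cells. Of 13 repair genes on the panel, 12 were listed and all 12 were lower, 7 of them past 2-fold. The median of their log2 ratios was -1.27. The ratios ran from -1.81 to -0.34 on the log2 scale. FANCI, a Fanconi anemia protein, was the repair gene not listed. In bulk RNA, fewer cells expressing a gene and less RNA per expressing cell cannot be told apart.

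EXO1, a nuclease that trims DNA ends in mismatch repair and recombination, had the lowest ratio of the panel. It was at 3.81 FPKM in extravasated against 13.4 FPKM in parental D17 cells, a 3.51-fold lower level. The gene lies on chromosome 7 from 33237166 to 33269792 (build CanFam3.1 in the submitters' processing notes; whether the first position counts from 0 or 1 is not given in the sources used here). Among all D17 genes with a value above 0 in both groups, EXO1 ranked 39 from the lowest ratio.

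Genes of homologous recombination also had low ratios. BRCA1, which directs broken ends to recombination, was at 4.14 FPKM in extravasated against 9.93 FPKM in parental cells. BRCA2, a central protein of recombination, was at 2.98 and 7.22 FPKM. Both genes were thus 2.40-fold and 2.42-fold lower, BRCA1 on chromosome 9 from 19960909 to 20026621 and BRCA2 on chromosome 25 from 7734449 to 7797815. BARD1, the partner of BRCA1, was less far apart, at 15.9 and 26.9 FPKM.

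RAD54L, a motor protein that assists strand exchange, was at 5.83 FPKM in extravasated against 16.0 FPKM in parental D17 cells, 2.75-fold lower. The table gives RAD54L the same span, on chromosome 15 from 14092954 to 14139940, as LRRC41, which was higher in extravasated cells (23.4 against 16.6 FPKM). XRCC2, another recombination gene, was at 3.19 and 7.76 FPKM and lies on chromosome 16 from 16402932 to 16429080. BLM, the helicase that dissolves recombination intermediates, was at 3.27 and 8.56 FPKM, a 2.62-fold difference, on chromosome 3 from 53406974 to 53506731.

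FANCA, a part of the Fanconi anemia core complex, was 2.71-fold lower, at 4.24 FPKM in extravasated against 11.5 FPKM in parental D17 cells (chromosome 5, 63778211 to 63838789). FANCD2, which that complex modifies at crosslinks, was at 7.99 and 14.3 FPKM. The 3 repair genes with the highest parental levels all differed by less than 2-fold. MSH6, a mismatch sensor, was at 21.3 and 38.1 FPKM. PARP1, which marks strand breaks, was at 21.8 and 40.3 FPKM. XRCC5, the larger subunit of the Ku end-joining complex, was at 34.1 and 43.0 FPKM and had the ratio nearest to 1 of the 12 genes.

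Of the checkpoint kinases, CHEK1 and CHEK2 were listed in D17 and both were lower. CHEK2, which acts below ATM, was at 8.98 FPKM in extravasated against 20.1 FPKM in parental cells, 2.23-fold lower (chromosome 26, 22052142 to 22120152). CHEK1, which acts below ATR, was at 5.93 and 10.8 FPKM. ATM and ATR themselves were not in the D17 table.

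A further list of 66 symbols of repair and checkpoint genes outside the panel gave 38 listed genes in D17. This list was also chosen with earlier results of these data known. Of the 38 genes, 37 were lower in extravasated cells, 16 of them past 2-fold, and 1 was higher. The median of their log2 ratios was -0.88. Among all listed D17 genes, 45.8% were lower and 8.50% were lower past 2-fold. The 3 lowest ratios of the pathway genes outside the panel were those of RECQL4, a helicase at replication origins and breaks (5.01 FPKM in extravasated against 19.9 FPKM in parental cells), RMI2, a partner of BLM (7.96 and 28.3 FPKM), and CLSPN, which brings CHEK1 to stalled forks (7.21 and 25.6 FPKM). The single higher gene was LIG4, the ligase of end joining, at 19.1 and 14.2 FPKM, named after its value was seen.

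Markers of cycling cells were lower as well. Of 19 proliferation markers, 17 were listed in D17 and all 17 were lower in extravasated cells, 14 past 2-fold, with log2 ratios around a median of -1.25 and a range from -2.07 to -0.80. Their summed level was 1080 FPKM in extravasated against 2696 FPKM in parental cells. RRM2, which makes deoxynucleotides for replication, was at 141 and 592 FPKM, and PCNA, the clamp of the replication fork, at 252 and 555 FPKM. MKI67 and CCNB1 were not listed. The part of the cell cycle in the levels of the repair genes was not tested.

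**Figure D2:**
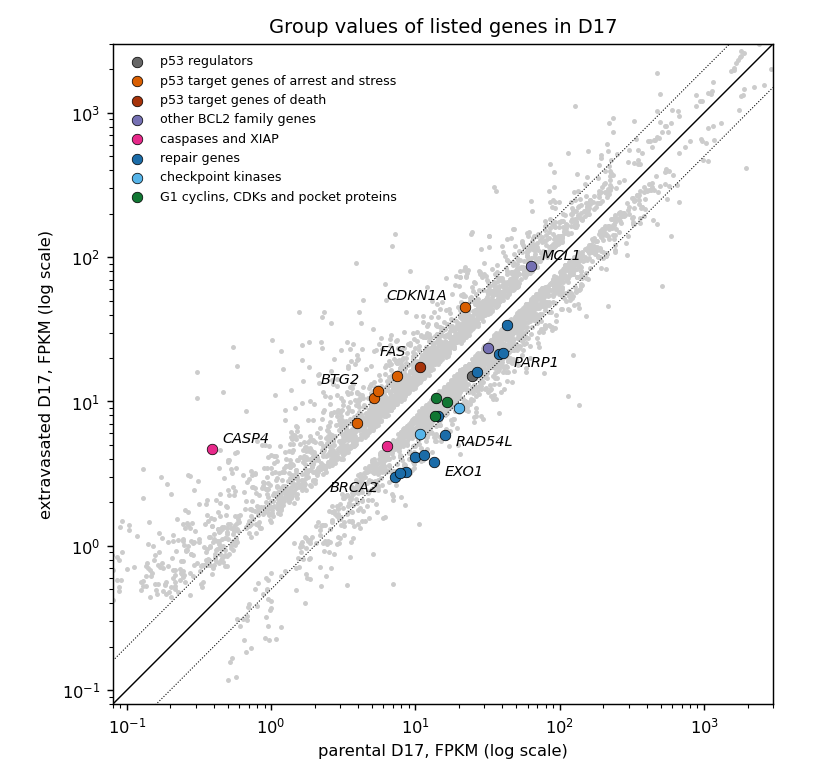
Level of each gene listed for D17 in parental cells (x axis) and extravasated cells (y axis), both in FPKM on log scales, with all listed genes above 0 in grey, panel genes in color, the line of equal levels in black and dotted lines at a ratio of 2. The band along the line of equal levels is thin because the table holds only genes that had passed the authors' test. EXO1 at 13.4 and 3.81 FPKM lies below the lower dotted line and CASP4 at 0.387 and 4.69 FPKM far above the upper one.

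The p53 target genes of arrest and stress went the other way in D17. Of 10 such genes, 5 were listed and all 5 were higher in extravasated cells, with log2 ratios from 0.86 to 1.09 and a median of 1.03. Of all listed D17 genes, 54.2% were higher and 18.3% higher past 2-fold, with a median of 0.39. Measured from that median, the only panel gene still more than 2-fold higher in D17 was CASP4. The 5 genes lay close together, and a mark of 2-fold falls among them. CDKN1A, which encodes the CDK inhibitor p21, was at 45.2 FPKM in extravasated against 22.2 FPKM in parental cells, 2.04-fold higher (chromosome 12, 5746898 to 5757614). BTG2, an antiproliferative gene, was at 11.8 and 5.54 FPKM, 2.12-fold higher (chromosome 38, 71178 to 72976).

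The sestrins, which restrain mTORC1 under stress, were both higher in extravasated D17 cells. SESN2 was at 10.6 FPKM in extravasated against 5.16 FPKM in parental cells, 2.05-fold higher (chromosome 2, 72148979 to 72168492). SESN1 was at 15.0 and 7.51 FPKM, at 1.99-fold just short of the mark. ZMAT3, an RNA-binding p53 target, was at 7.12 and 3.91 FPKM.

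Of 5 p53 target genes of death, FAS alone was listed in D17. FAS, the receptor of Fas ligand, was at 17.4 FPKM in extravasated against 10.7 FPKM in parental cells, 1.63-fold higher. BAX, BBC3 and PMAIP1, which act on mitochondria, and TNFRSF10B, a receptor of TRAIL, were not in the D17 table. MDM4, which represses p53, was lower, at 15.0 and 24.8 FPKM, and MDM2, itself a p53 target, was not listed. The 6 listed p53 target genes of both kinds had a median log2 ratio of 1.01.

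Genes of the p53 pathway outside the panel were divided. Of 34 such symbols, 15 were listed in D17, 9 higher and 6 lower in extravasated cells, and the median of the log2 ratios was 0.36, against 0.39 for all listed genes. The higher ones CCNG1 and PERP turned lower when measured from that median. The highest ratios were those of DDIT4, an mTORC1 inhibitor induced by several stresses, at 41.8 FPKM in extravasated against 4.03 FPKM in parental cells, of PLK2, a p53-induced kinase, at 26.5 and 7.46 FPKM, and of CCNG2, a cyclin found in resting cells, at 38.4 and 14.3 FPKM.

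The death genes showed no common direction in D17. Of 6 BCL2 family genes outside the p53 targets, 2 were listed. MCL1, a short-lived survival protein, was at 87.3 FPKM in extravasated against 63.0 FPKM in parental cells. BCL2L1, which encodes the survival protein BCL-XL, was lower, at 23.6 and 31.6 FPKM. XIAP, an inhibitor of executioner caspases, was at 4.93 and 6.37 FPKM. All 3 differed by less than 1.5-fold.

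CASP4, an inflammatory caspase that senses bacterial lipopolysaccharide in the cytosol, had the highest ratio of the panel. It was at 4.69 FPKM in extravasated against 0.387 FPKM in parental D17 cells, 12.1-fold higher, and ranked 36 from the top of the D17 genes with a value above 0 in both groups. CASP4 lies on chromosome 5 from 27132987 to 27149790. CASP1 was listed in no table, and the RefSeq gene table for the dog assembly UU_Cfam_GSD_1.0 holds CASP1 only as another name of CASP4, so the panel's 2 symbols may refer to 1 canine gene. The only other listed D17 gene within 500 kb was CASP12, named after its value was seen, 13.0 kb away and at 4.48 FPKM in extravasated against 0.582 FPKM in parental cells. Genes of this family are alike in sequence, and how reads were shared between them is not given in the sources used here.

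Interferon-induced genes were higher in the same cells under the reading of the group names used here. The article reports the opposite, with the interferon gamma response enriched among the downregulated genes of both extravasated lines. Of 23 such markers, 18 were listed in D17 and all 18 were higher in extravasated cells, with log2 ratios from 0.58 to 3.05 and summed levels of 2201 and 754.4 FPKM. Several inflammatory caspases are known interferon targets. The part of interferon in the level of CASP4 was not tested.

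Of 45 death genes outside the panel, 14 were listed in D17, 8 higher and 6 lower in extravasated cells. The median of their log2 ratios was 0.51, against 0.39 over all listed genes, of which 54.2% were higher and 45.8% lower. Past 2-fold, 3 were higher and 2 lower, against 18.3% and 8.50% of all listed genes. The 3 higher ones were TNFSF10, the death ligand TRAIL, at 67.4 and 25.6 FPKM, BNIP3, a mitochondrial protein induced by low oxygen, at 73.0 and 28.8 FPKM, and GSDMD, the pore protein that inflammatory caspases cleave, at 79.2 and 36.5 FPKM. The 2 lower ones were BIRC5, a mitotic member of the IAP family, at 140 and 297 FPKM, and BCL2L14, a relative of BCL2, at 0.372 and 1.00 FPKM. These genes were named after their values were seen.

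Of the 6 G1 genes of the panel, 3 were listed in D17. All 3 were lower in extravasated cells, 0 of them past 2-fold, while 45.8% of all listed genes were lower. CDK6, a partner of the D cyclins, was at 7.94 FPKM in extravasated against 13.7 FPKM in parental cells. RBL1, the pocket protein p107, was at 9.93 and 16.5 FPKM. CCND2, cyclin D2, was at 10.5 and 13.8 FPKM. RB1, CCND1 and CDK4 and all 5 CDK inhibitors outside CDKN1A were not in the D17 table. Outside the panel, 11 of 16 G1 symbols were listed, 9 lower and 2 higher, with a median log2 ratio of -0.85.

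**Figure D3:**
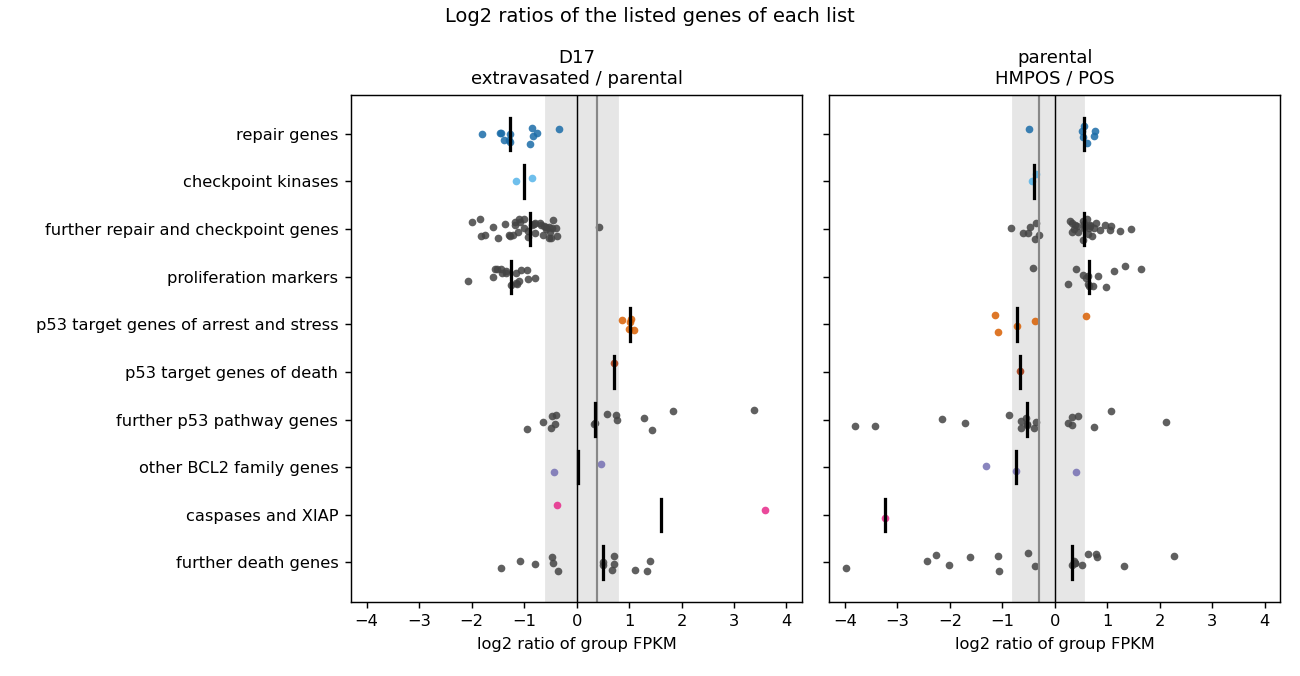
Log2 ratios (x axis) of every listed gene of each gene list (rows) in D17 and for parental HMPOS against POS, with a point for each gene, a black bar at the median of the list, a grey line at the median of all listed genes and a grey band between their quartiles. In D17 the repair genes and the proliferation markers lie on the left (medians -1.27 and -1.25) and the p53 target genes of arrest and stress on the right (1.03), and in HMPOS against POS the repair genes and proliferation markers lie on the right (0.56 and 0.65).

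In HMPOS, 5 genes of the panel were listed. Of these, 3 were p53 target genes or their relatives and all 3 were higher in extravasated cells. Of all 1189 listed genes in HMPOS, 67.0% were higher, and the median log2 ratio was 0.58. Measured from that median, the median of the 3 genes was 0.36. CDKN1A was at 10.3 FPKM in extravasated against 5.33 FPKM in parental cells, 1.93-fold higher. GADD45A, a p53 target that slows the cell cycle after damage, was at 3.98 and 2.10 FPKM. GADD45G, a stress-induced relative of GADD45A, had the largest ratio, 3.12-fold, at low levels of 1.14 and 0.365 FPKM (chromosome 1, 96744757 to 96746752).

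CCND2 was 2.42-fold higher in extravasated HMPOS cells, at 3.85 FPKM against 1.59 FPKM in parental cells (chromosome 27, 40567735 to 40594271). BRCA2, the only listed repair gene, was lower, at 7.80 and 10.4 FPKM. No BCL2 family gene, caspase or checkpoint kinase of the panel was in the HMPOS table. Thus CDKN1A, BRCA2 and CCND2 were the panel genes listed for both lines. CDKN1A was higher and BRCA2 lower in the extravasated cells of each line, whereas CCND2 was lower in D17 and higher in HMPOS. Whether any ratio differed between the lines was not tested.

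Outside the panel, all 4 listed genes of repair and checkpoints and all 3 listed proliferation markers were lower in extravasated HMPOS cells. FANCF, a Fanconi anemia core gene, had the lowest ratio of the pathway genes, at 0.755 FPKM in extravasated against 1.88 FPKM in parental cells. TNFRSF11B, the decoy receptor osteoprotegerin, was at 37.3 and 74.6 FPKM, and E2F8, a repressor of cell cycle genes, at 12.5 and 19.8 FPKM. High ratios were those of PLK2, at 6.30 and 1.24 FPKM, and TNFSF10, at 3.88 and 1.68 FPKM. Of 34 p53 pathway symbols outside the panel, 6 were listed, 4 higher and 2 lower, and of 45 death symbols 5, 4 higher and 1 lower. Among all listed HMPOS genes, 67.0% were higher and 33.0% lower. The higher PLK3, THBS1, DFFB, GSDMD and HTRA2 turned lower when measured from the median of all listed HMPOS genes. DDIT4, named after its value was seen, was lower in extravasated HMPOS cells, at 90.8 against 135 FPKM, but higher in extravasated D17 cells.

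Between the parental lines, the repair genes were mostly higher in HMPOS than in POS. Of 13 repair genes, 7 were listed, 6 higher and 1 lower in HMPOS, while 47.7% of all listed genes were higher. The 7 had a median log2 ratio of 0.56. None of them reached 2-fold, whereas 8.49% of all listed genes were higher past 2-fold. BLM had the largest ratio, at 12.6 FPKM in HMPOS against 7.42 FPKM in POS. EXO1 was at 15.8 and 9.41 FPKM. PARP1, the repair gene with the highest level, was at 123 and 80.5 FPKM. FANCD2 was at 26.5 and 18.2 FPKM, XRCC5 at 25.1 and 17.01 FPKM and BRCA2 at 10.3 and 7.25 FPKM.

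MSH6 was the repair gene that was lower in HMPOS, at 39.1 FPKM against 54.9 FPKM in POS. The 2 listed checkpoint kinases, ATM and CHEK2, were lower too. Their log2 ratios of -0.44 and -0.36 lay near the median of -0.31 of all listed genes, of which 52.3% were lower. ATM was at 4.76 and 6.46 FPKM and CHEK2 at 14.3 and 18.3 FPKM, where the table gives CHEK2 the same span as HSCB, which was also lower in HMPOS (42.0 against 64.4 FPKM). Of the repair and checkpoint symbols outside the panel, 33 were listed, 26 higher and 7 lower in HMPOS. The lower ATRIP turned higher when measured from the median of all listed genes, of which 47.7% were higher. The 33 genes had a median log2 ratio of 0.55. FANCM, a helicase that anchors the Fanconi anemia core complex, had the largest ratio of them, at 11.4 FPKM in HMPOS against 4.17 FPKM in POS. Of the proliferation markers, 13 of the 14 listed were higher in HMPOS and 1 lower, with summed levels of 2427 and 1522 FPKM, and their part in the repair genes was again not tested.

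The p53 genes were mostly lower in HMPOS than in POS. Of the 6 listed p53 target genes, 5 were lower and 1 higher in HMPOS, while 52.3% of all listed genes were lower. Past 2-fold, 2 of the 6 were lower, against 19.1% of all listed genes. The 6 had a median log2 ratio of -0.69, or -0.39 measured from the median of all listed genes. CDKN1A was at 5.32 FPKM in HMPOS against 11.3 FPKM in POS, 2.13-fold lower, and BTG2 at 1.61 and 3.54 FPKM, 2.20-fold lower. GADD45A was at 2.10 and 3.46 FPKM and GADD45B at 9.79 and 12.7 FPKM. The log2 ratio of GADD45B, -0.37, lay near the median of -0.31 of all listed genes. BAX, the pore-forming effector of mitochondrial death, was at 37.1 and 58.8 FPKM.

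ZMAT3 was the exception among the p53 targets, at 4.16 FPKM in HMPOS against 2.76 FPKM in POS. Both p53 regulators were lower in HMPOS by less than 1.5-fold, MDM2 at 49.8 and 62.5 FPKM and MDM4 at 8.02 and 10.5 FPKM. Their log2 ratios of -0.33 and -0.39 lay near the median of all listed genes. Of the p53 pathway symbols outside the panel, 19 were listed, 7 higher and 12 lower in HMPOS, against 52.3% lower among all listed genes. The lowest were PERP, a membrane protein of p53-dependent death (0.0789 and 1.11 FPKM), and THBS1, an inhibitor of vessel growth (5.01 and 53.7 FPKM), while DDIT4 was higher, at 134.7 and 30.8 FPKM.

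Of the death genes, CASP8 was furthest apart between the parental lines. CASP8, the initiator caspase of death receptors, was at 2.47 FPKM in HMPOS against 23.3 FPKM in POS, 9.44-fold lower (chromosome 37, 10391047 to 10401822). BCL2, the founding survival gene of its family, was at 2.04 and 5.04 FPKM, 2.47-fold lower (chromosome 1, 13734221 to 13903975). BCL2L11, which encodes the killer protein BIM, was at 4.44 and 7.46 FPKM. BAK1, a pore-forming effector like BAX, was higher in HMPOS, at 22.5 and 16.98 FPKM. Thus both survival and killer genes of the BCL2 family were on the lower side, and BAX and BAK1 differed in opposite directions.

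Outside the panel, 19 of 45 death symbols were listed, 10 higher and 9 lower in HMPOS, and 7 of the 9 lower ones were past 2-fold. Of all listed genes, 52.3% were lower and 19.1% were lower past 2-fold. TNFSF10 had the lowest ratio of all pathway genes outside the panel, at 1.68 FPKM in HMPOS against 26.6 FPKM in POS. TNFRSF11B, which can bind TRAIL, had the highest, at 74.5 and 15.4 FPKM. CFLAR, the inhibitor of CASP8, named after its value was seen, was at 11.5 and 62.5 FPKM. All 16 listed interferon-induced markers were lower in HMPOS, with log2 ratios from -9.61 to -1.36 and summed levels of 77.9 and 2699 FPKM. CASP8 and TNFSF10 are known to respond to interferon, and the part of interferon in their levels was not tested.

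Among the cell cycle genes, CCND2 stood furthest apart. It was at 1.59 FPKM in HMPOS against 18.4 FPKM in POS, 11.6-fold lower, and ranked 120 from the bottom among the genes with a value above 0 in both groups. CDK4, the partner of the D cyclins, had the highest level of the panel, at 246 and 373 FPKM, and the table gives it the same wide span, on chromosome 10 from 1687462 to 1995052, as OS9, which was also lower in HMPOS (41.0 against 126 FPKM). CDKN1B, the CDK inhibitor p27, was at 26.2 and 43.6 FPKM. CDKN2A, CDKN2B, CDKN2C and CDKN1C, the other CDK inhibitors of the panel, were listed in no table, and neither were GDF15 and TP53INP1, both p53 targets, nor BID, which links CASP8 to mitochondria.

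The HMPOS extravasation table and the table of the parental lines share the parental HMPOS libraries, so a panel gene listed in both has 1 group in common and its ratios are not independent. CDKN1A stood at 11.3 FPKM in POS, 5.32 FPKM in parental HMPOS and 10.3 FPKM in extravasated HMPOS cells. GADD45A stood at 3.46, 2.10 and 3.98 FPKM, BRCA2 at 7.25, 10.3 and 7.80 FPKM, and CCND2 at 18.4, 1.59 and 3.85 FPKM in the same order. Parental HMPOS was thus the lowest of the 3 groups for CDKN1A, GADD45A and CCND2 and the highest for BRCA2. Which HMPOS group is called parental rests on the reading of the group names. Over 907 genes listed in both tables, the parental HMPOS values differed by a median of 0.00135 on the log2 scale, and by at most 0.00195 for these 4 genes.

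**Figure D4:**
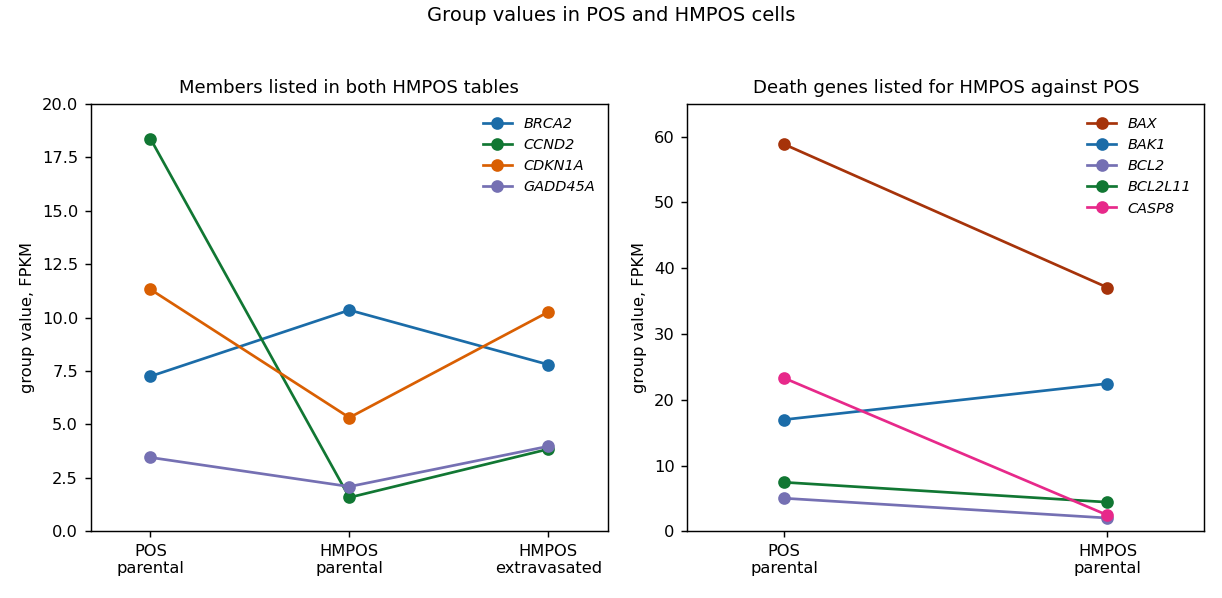
Group values in FPKM (y axes, from 0) of the 4 panel genes listed in both HMPOS tables, across POS, parental HMPOS and extravasated HMPOS cells on the left, and of the 5 death genes listed for HMPOS against POS on the right, with 1 point per group and no error bars because each value pools 3 libraries. CCND2 is at 18.4 FPKM in POS, at 1.59 FPKM in parental HMPOS and at 3.85 FPKM in extravasated HMPOS, and CASP8 differs between 23.3 and 2.47 FPKM while BAK1 is higher in HMPOS.

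Marker genes of cell types were looked up as well. A marker equally present or equally absent in both groups of a comparison would not be listed. The values therefore describe differences between groups and cannot show the identity of the cells. Of 9 osteoblast markers, 4 were listed in D17, and all 4 were higher in extravasated cells, against 54.2% of all listed genes. The summed levels of these 4 markers were 2215 and 908 FPKM. Among them SPP1, osteopontin, was at 25.2 and 3.71 FPKM, COL1A2, a chain of type I collagen, at 1360 and 493 FPKM, and SPARC, a bone matrix protein, at 433.0 and 187 FPKM. In HMPOS, 4 of the 5 listed were higher in extravasated cells and 1 lower, where 67.0% of all listed genes were higher. The summed levels were 3125 and 1923 FPKM, most of them from SPARC, at 2897 and 1777 FPKM. IBSP, bone sialoprotein, was lower, at 0.427 and 2.05 FPKM. The higher COL1A1 turned lower when measured from the median of all listed genes. Between the parental lines, 4 of the 5 listed were lower in HMPOS than in POS, all past 2-fold, and 1 was higher. Of all listed genes, 52.3% were lower and 19.1% lower past 2-fold. The summed levels were 1934 and 5384 FPKM, most of them from SPARC, at 1775 and 4439 FPKM. BGLAP, osteocalcin, was at 27.3 and 676 FPKM there and SPP1 at 1.73 and 13.8 FPKM. RUNX2 was not listed.

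None of 8 leukocyte markers was listed in any table, which does not show whether they were expressed. Of 5 endothelial markers only KDR was listed, at 0.146 FPKM in HMPOS against 1.73 FPKM in POS. Of 5 epithelial markers, EPCAM and CDH1 were listed. EPCAM was at 1.72 FPKM in extravasated against 0.431 FPKM in parental D17 cells, 3.997-fold higher. CDH1, E-cadherin, was 18.7-fold higher in extravasated D17 cells, at 1.47 and 0.0783 FPKM, and ranked 15 from the highest ratio in that table. In HMPOS it was 2.04-fold higher in extravasated cells, at 3.04 and 1.49 FPKM, and it was 2.88-fold lower in parental HMPOS than in POS. The part of these markers in the levels of the panel genes was not tested.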

How the data were processed

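The series holds 15 RNA-seq libraries of canine osteosarcoma cells, 3 in each of 5 groups. The authors deposited 3 tables in the format of Cuffdiff, each with an FPKM value for either group of a comparison, and this value pools the libraries of the group. The submitters' processing notes name Trimmomatic 0.38, TopHat2, Cufflinks, Cuffdiff and the build CanFam3.1, whereas the article describes STAR, voom and limma. The kits for RNA and libraries differ between the 2 sources as well. The further columns of the deposited tables (log2 fold change, test statistic, p-value and q-value) are the authors' own comparison and were not used. That fold change is of the second group over the first, the inverse of the ratio given here. All rows are marked significant, so that 0 rows of genes that failed are present.

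Genes were taken by exact symbol and log2 ratios computed from the FPKM values with no pseudocount. Counts were made at any fold and above 2-fold, the mark of the article's methods, beside the same share of all listed genes. Medians over genes left out 8, 3 and 28 genes with a value of 0 in D17, HMPOS and HMPOS against POS, none of them on the panel. Without values per library, no test was made, and depth and precision are unknown. The panel and the gene lists were chosen with earlier results of these data known. Every listed panel gene was named, with values at least for those past 2-fold or in all 3 tables. Outside the panel, the 3 highest and 3 lowest ratios per table with 1 FPKM or more in either group were named, and others as stated. Of these, 1 gene in the HMPOS table is not reported here. Of the 55 symbols, 53 occur in the RefSeq gene table. The counting code was tested on simulated data. Alternatives were a mark of 1.5-fold, any fold, a filter at 1 FPKM, a pseudocount of 1 FPKM and centring on the median of all listed genes. Promoter motifs had been planned and were not searched, since no promoter sequences were used here. Python 3.11.15, numpy 2.4.6, pandas 2.3.3 and matplotlib 3.10.9 were used.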

Additional observations from a re-analysis of the deposited data

Results flagged for a closer look

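CCND2 had opposite directions in the extravasated cells of the lines. On the log2 scale, extravasated over parental, its ratio was -0.40 in D17 and 1.28 in HMPOS, from group values of 10.5 and 13.8 FPKM in D17 and of 3.85 and 1.59 FPKM in HMPOS. It was the only one of the 3 panel genes listed for both lines to do so. Each value pools 3 libraries, so it is not known whether every library went the same way, and the difference between the lines was not tested.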

How the results depend on the processing

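No paired analysis was possible because each group has a single pooled FPKM, although the labels number the libraries of each group, and for the same reason no replicate could be left out. The order below is D17, HMPOS, HMPOS against POS unless named, and the cause of each move was not tested beyond the construction of the alternative. At 1.5-fold, 7, 4 and 4 genes were higher, and 16 (D17) and 10 (HMPOS against POS) lower. At any fold, 8, 4 and 8 were higher and 20, 1 and 16 lower. With a pseudocount of 1 FPKM, 1 (D17) and 0 (HMPOS) were higher and 2 (HMPOS against POS) lower. After centring, 1, 1 and 2 were higher and 16 (D17) and 3 (HMPOS against POS) lower. The median log2 ratio of the repair genes was -1.06, -0.37 and 0.54 with the pseudocount and -1.66, -0.99 and 0.87 after centring. That of the p53 target genes was 0.91, 0.68 and -0.59 with the pseudocount and 0.63, 0.36 and -0.39 after centring. That of the other death genes, 0.05 over 4 genes in D17 and -1.03 over 4 in HMPOS against POS, was 0.076 and -0.81 with the pseudocount and -0.33 and -0.72 after centring, so that it turned sign in D17. The filter at 1 FPKM changed none of these counts or medians. All listed genes had passed a test, so their median is no neutral reference. Genes near 1 FPKM, such as GADD45G, depend most on the pseudocount.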

Other observations

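Genes next to CASP8 and CCND2 were also listed for parental HMPOS against POS. Every listed gene had passed the authors' test, so being listed already means a difference. These neighbours were looked up after the values of CASP8 and CCND2 had been seen. Within 500 kb of CASP8 on chromosome 37, 7 other genes were listed for HMPOS against POS and all 7 were lower in HMPOS. Of all listed genes, 52.3% were lower. The differences ran from 1.35-fold (FAM126B) to 5.43-fold (CFLAR), and a link to position was not tested. CFLAR, 84.0 kb away, was 5.43-fold lower, NDUFB3, a subunit of respiratory complex I, was at 391 and 860 FPKM, and TRAK2, the nearest at 29.2 kb, was at 38.4 and 58.7 FPKM. CDK15 was at 1.47 and 3.64 FPKM.

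Around CCND2 on chromosome 27 the neighbours were divided. TIGAR, a p53 target that lowers glycolytic flux and lies 18.4 kb from CCND2, was at 26.95 FPKM in HMPOS against 12.9 FPKM in POS, 2.09-fold higher, where CCND2 was 11.6-fold lower. In D17, TIGAR was at 54.1 FPKM in extravasated against 104 FPKM in parental cells, and RAD51AP1, a recombination gene 226.0 kb from CCND2, was at 56.3 and 119 FPKM. The other listed neighbours were TMA7, at 195 FPKM in HMPOS against 841 FPKM in POS, and PARP11, at 5.32 against 8.49 FPKM in the same lines and at 32.4 FPKM in extravasated against 19.4 FPKM in parental D17 cells. In the HMPOS extravasation table no neighbour within 500 kb was listed.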
